A study of Homo sapiens with 6 samples.

Results

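A set of 10 sphingolipid genes was followed in A549 cells carrying a guide RNA against H2AC19: the fatty acid 2-hydroxylase gene FA2H and 9 genes that make ceramide or use it (SPTLC1, SPTLC2, CERS2, CERS5, CERS6, DEGS1, UGCG, SGMS1 and SPHK1). They are 10 of the 62700 genes in the deposited table, and all 10 were among the 12871 genes with at least 1 FPKM (fragments per kilobase of gene, scaled to the library's fragment total) in at least 3 libraries. The list was chosen from earlier results of this same comparison, FA2H for its lower level, so the values of these 10 genes are given below as a description, with fold changes and standard errors and no p-value. A549 is a long-established human cell line from an epithelial tumour, a lung adenocarcinoma, and H2AC19 encodes a replication-dependent histone H2A. RNA was sequenced from 3 sgH2AC19 libraries, which the study describes as knockout derivatives, and from 3 sgControl libraries with a control guide, labelled wild type. Both groups were cultured alike, and the labels give no further treatment or time. Whether the knockout cells were 1 clone or a pool is not given in the sources used here. Nothing in the labels ties the 3 libraries of a group to separate cultures; the spread on which every p-value below rests is therefore that between libraries and may be technical.

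Sphingolipids begin with the joining of serine and palmitoyl-CoA by serine palmitoyltransferase in the endoplasmic reticulum, and the product is N-acylated by ceramide synthases and desaturated to give ceramide. FA2H puts a hydroxyl group on the second carbon of the fatty acid, so that 2-hydroxy-ceramides, and the glycolipids and sphingomyelins made from them, can form; these lipids are best known from myelin and skin and are also made in other epithelia. Ceramide is then turned into glucosylceramide, sphingomyelin or ceramide phosphate, or is broken down to sphingosine and its signalling phosphate.

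Of the 10 genes, FA2H had the lowest fold change, at 39.6% of the sgControl mean, and UGCG, the entry enzyme of most glycosphingolipids, came next. Their core promoters, from 250 bases before to 50 after the annotated start, are shown because these are the members whose transcripts differed most. The sequences are those of RefSeq on GRCh38.p14, at chr16:74774771-74775070 on the minus strand for FA2H and at chr9:111896564-111896863 on the plus strand for UGCG. Capitals mark GGGCGG or its reverse complement CCGCCC, the box bound by Sp-family factors, and CCAAT, the box bound by NF-Y, on either strand.
FA2H: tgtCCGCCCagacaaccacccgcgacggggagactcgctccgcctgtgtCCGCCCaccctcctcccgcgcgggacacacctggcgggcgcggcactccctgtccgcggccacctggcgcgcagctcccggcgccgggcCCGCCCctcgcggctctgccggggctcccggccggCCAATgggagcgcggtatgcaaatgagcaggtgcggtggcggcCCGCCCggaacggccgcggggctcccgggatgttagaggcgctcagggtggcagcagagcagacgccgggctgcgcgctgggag
UGCG: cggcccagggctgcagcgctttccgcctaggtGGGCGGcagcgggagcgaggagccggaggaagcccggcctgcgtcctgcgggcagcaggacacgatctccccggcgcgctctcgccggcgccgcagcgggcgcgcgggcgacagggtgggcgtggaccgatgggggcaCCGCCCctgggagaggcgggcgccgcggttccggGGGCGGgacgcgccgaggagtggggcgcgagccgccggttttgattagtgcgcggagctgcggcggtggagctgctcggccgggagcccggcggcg
The FA2H promoter holds 4 GGGCGG words and 1 CCAAT word, and the UGCG promoter holds 3 GGGCGG words and 0 CCAAT words. Neither holds TATAAA, or TGANTCA, the word bound by AP-1, on either strand, which says only that these letters are not in these windows. Both are rich in G and C, at 77.0% in FA2H and 79.0% in UGCG, with 41 and 48 CG pairs, where the median over all 35116 RefSeq promoters of this length is 14. GGGCGG occurs in 45.0% of those promoters, CCAAT in 34.6%, TATAAA in 11.5% and TGANTCA in 7.71%. None of the marked words overlaps another. A promoter was matched for 9 of the 10 genes, 12 promoters in all, and each of the 9 genes had a promoter with GGGCGG. G and C made up from 57.7% (SPTLC1) to 80.3% (a promoter of DEGS1) of the 12, with 20 to 50 CG pairs. These traits are therefore not particular to FA2H and UGCG.

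Read totals recovered from the table ranged from 35681162 to 45738439 per library. Mates of a pair count as separate reads here, because the most frequent step was taken as 1 mate pair, so fragments are fewer than reads. H2AC19 (ENSG00000288859) was listed at 0 FPKM in all 6 libraries, so its level checks no label. The first principal component, with 53.7% of the variance, separated the groups. The next component, with 18.2%, put sgH2AC19 replicate 3 at -16.0, against 8.09 and 8.32 for sgH2AC19 replicates 1 and 2, so results are also given without that library. All 5 markers of simple epithelium reached 1 FPKM in at least 3 libraries, with sums of 753 to 790 FPKM in sgH2AC19 and 586 to 622 FPKM in sgControl. KRT8 and KRT18 make up most of these sums, and KRT19 went the other way, with 43.5 ± 2.66 FPKM in sgH2AC19 and 59.9 ± 2.22 FPKM in sgControl. Of 8 endothelial markers 0 reached it, and their sums were 0.682 to 0.813 FPKM in sgH2AC19 and 0.534 to 1.07 FPKM in sgControl. Of 8 fibroblast markers 2 did (COL1A1 and LUM), with sums of 5.38 to 6.27 FPKM in sgH2AC19 and 3.47 to 3.92 FPKM in sgControl. COL1A1 reached 1 FPKM in sgH2AC19 only, at 1.39 ± 0.124 FPKM in sgH2AC19 and 0.641 ± 0.0641 FPKM in sgControl. Of 8 leukocyte markers 1 did (CD14), with sums of 3.30 to 4.55 FPKM in sgH2AC19 and 3.02 to 3.15 FPKM in sgControl, and CD3E was at 0 in all 6 libraries. Of 6 markers of oligodendrocytes, the FA2H-rich cells of myelin, 2 did (MBP and CNP), with sums of 13.5 to 15.0 FPKM in sgH2AC19 and 12.1 to 12.7 FPKM in sgControl. The part of these sums in the results below was not tested.

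FA2H (ENSG00000103089, chr16:74712955-74774831 on the minus strand in GENCODE 29, GRCh38; exons of 3279 bases in all, overlapping no other gene) had 5.00, 4.59 and 4.56 FPKM in sgH2AC19 replicates 1 to 3, against 11.4, 12.5 and 11.9 FPKM in sgControl replicates 1 to 3. The 3 sgH2AC19 libraries lay close together and well below all 3 sgControl libraries. The means were 4.72 ± 0.246 FPKM in sgH2AC19 and 11.9 ± 0.530 FPKM in sgControl (SD, n = 3 each). The log2 fold change, on the log2(FPKM + 1) scale used throughout, which understates changes of low genes, was -1.18 (SE 0.0548). From the lowest fold change upwards this was rank 11 of the 12871 genes tested. Behind these levels stood 750, 537 and 568 recovered reads in sgH2AC19 and 1356, 1615 and 1578 in sgControl. The fold change was -1.16 without sgH2AC19 replicate 3 and lay between -1.21 and -1.14 when each of the 6 libraries was left out in turn. In bulk libraries, fewer cells with a transcript and less of it per cell cannot be told apart.

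**Figure D1:**
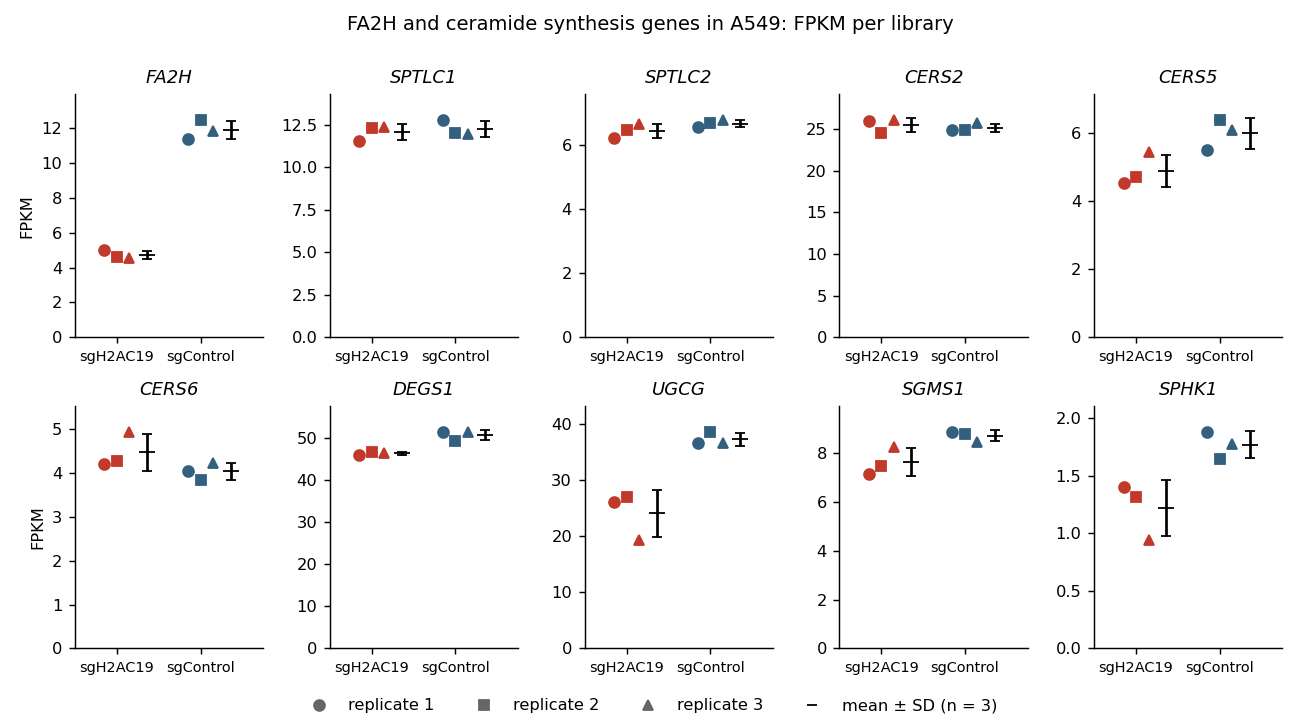
FPKM of each of the 10 genes by library (y axis from 0, a scale per gene; sgH2AC19 left, sgControl right; symbols are replicates, bars are mean ± SD, n = 3). FA2H sits between 4.56 and 5.00 FPKM in sgH2AC19 and between 11.4 and 12.5 FPKM in sgControl, UGCG is lowest in sgH2AC19 replicate 3, and SPTLC1, SPTLC2, CERS2 and CERS6 overlap between the groups.

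The genes of the de novo route differed far less. SPTLC1 (chr9:92000087-92115384, minus strand), the common subunit of serine palmitoyltransferase, had 11.6, 12.3 and 12.4 FPKM in sgH2AC19 and 12.8, 12.0 and 12.0 FPKM in sgControl. SPTLC2 (chr14:77505997-77616773, minus strand), its catalytic partner, had 6.22, 6.45 and 6.65 FPKM in sgH2AC19 and 6.54, 6.68 and 6.76 FPKM in sgControl. The groups overlapped for both subunits. The log2 fold changes were -0.02 (SE 0.0493) for SPTLC1 and -0.04 (SE 0.0462) for SPTLC2. DEGS1 (chr1:224175756-224193441, plus strand), the desaturase that turns dihydroceramide into ceramide and the most abundant of the 10 transcripts, had 45.9, 46.6 and 46.5 FPKM in sgH2AC19 and 51.5, 49.3 and 51.4 FPKM in sgControl. Every sgH2AC19 library was below every sgControl library, at means of 46.3 ± 0.378 FPKM in sgH2AC19 and 50.8 ± 1.24 FPKM in sgControl (SD, n = 3 each), with a log2 fold change of -0.13 (SE 0.0387).

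The 3 ceramide synthases of the list differ in the acyl chain they attach: CERS2 prefers very long chains and CERS5 and CERS6 prefer palmitoyl-CoA. CERS2 (chr1:150960583-150975004, minus strand) had 25.9, 24.5 and 26.1 FPKM in sgH2AC19 and 24.8, 24.9 and 25.7 FPKM in sgControl. The groups overlapped, and the log2 fold change was 0.02 (SE 0.0433). Its exons overlap those of SETDB1 on the opposite strand, which had 6.15 ± 0.187 FPKM in sgH2AC19 and 6.00 ± 0.198 FPKM in sgControl; where counting ignores strand, reads of such pairs cannot be told apart, and whether it did is not given in the sources used here. CERS5 (chr12:50129306-50167533, minus strand) had 4.54, 4.71 and 5.44 FPKM in sgH2AC19 and 5.50, 6.38 and 6.11 FPKM in sgControl. The groups did not overlap, but sgH2AC19 replicate 3 lay just under the lowest sgControl library. The log2 fold change of CERS5 was -0.25 (SE 0.0764), and -0.31 without sgH2AC19 replicate 3. CERS6 (chr2:168455862-168775137, plus strand) had 4.20, 4.27 and 4.95 FPKM in sgH2AC19 and 4.06, 3.84 and 4.22 FPKM in sgControl. It was the only member other than CERS2 with a higher mean in sgH2AC19, and the groups overlapped, with a log2 fold change of 0.12 (SE 0.0683) that was 0.055 without sgH2AC19 replicate 3.

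Summed over the 6 ceramide synthase genes, the level was 35.8, 34.7 and 37.5 FPKM in sgH2AC19 and 35.7, 36.1 and 37.1 FPKM in sgControl, so the sums overlapped. CERS2 made up 72.4%, 70.8% and 69.4% of this sum in sgH2AC19 and 69.6%, 69.1% and 69.4% in sgControl. CERS5 took 12.7%, 13.6% and 14.5% in sgH2AC19 and 15.4%, 17.7% and 16.5% in sgControl. CERS6 took 11.7%, 12.3% and 13.2% in sgH2AC19 and 11.4%, 10.6% and 11.4% in sgControl. Every sgH2AC19 library thus had a smaller CERS5 share and a larger CERS6 share than every sgControl library, while CERS2 shares overlapped. CERS3, the synthase of ultra-long chains in skin, was at 0 throughout.

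**Figure D2:**
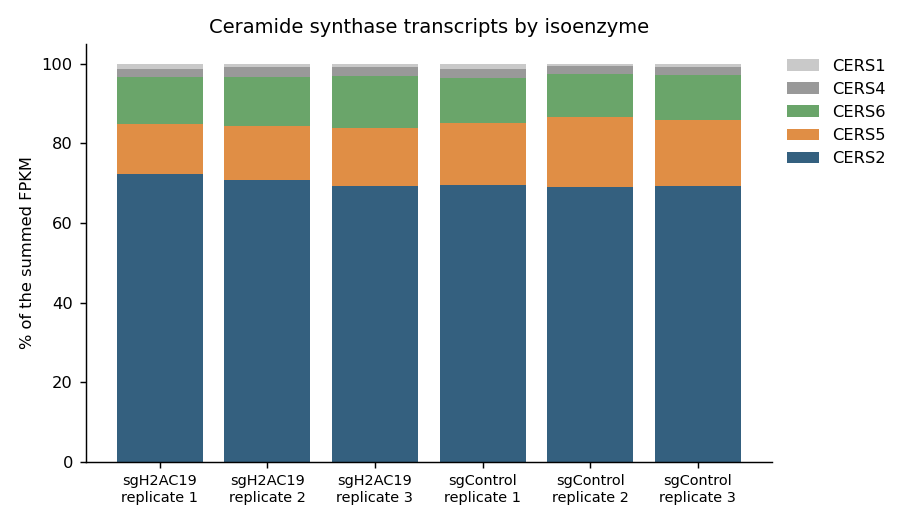
Share of the summed ceramide synthase FPKM held by each isoenzyme (y axis, %), 1 bar per library, sgH2AC19 left of sgControl. CERS2 holds 69.1% to 72.4% in every library, and the CERS5 band is thinner in the 3 sgH2AC19 bars (12.7% to 14.5%) than in the 3 sgControl bars (15.4% to 17.7%).

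Among the enzymes that use ceramide, UGCG, which adds glucose to it, differed most. UGCG (chr9:111896766-111935369, plus strand) had 26.0, 27.0 and 19.3 FPKM in sgH2AC19 and 36.6, 38.7 and 36.6 FPKM in sgControl. All sgH2AC19 libraries were below all sgControl libraries, and replicate 3 was lower than its 2 fellows by more than those differed from each other. The means were 24.1 ± 4.19 FPKM in sgH2AC19 and 37.3 ± 1.21 FPKM in sgControl (SD, n = 3 each). The log2 fold change was -0.62 (SE 0.117), and -0.48 without sgH2AC19 replicate 3. SGMS1 (chr10:50305586-50625163, minus strand), the Golgi sphingomyelin synthase, had 7.16, 7.50 and 8.26 FPKM in sgH2AC19 and 8.89, 8.80 and 8.45 FPKM in sgControl. The groups were separated by a narrow gap, again with sgH2AC19 replicate 3 nearest to sgControl. The log2 fold change of SGMS1 was -0.17 (SE 0.0590), and -0.22 without that library; its exons overlap those of SGMS1-AS1, which was at 0.237 to 0.373 FPKM. Over UGCG, SGMS1, SGMS2, SAMD8 and CERK together the level was 52.8, 54.0 and 52.3 FPKM in sgH2AC19 and 68.8, 70.9 and 69.5 FPKM in sgControl. UGCG held 49.4%, 50.0% and 36.9% of that sum in sgH2AC19 and 53.1%, 54.5% and 52.7% in sgControl.

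SPHK1 (chr17:76376584-76387860, plus strand), a kinase that makes sphingosine 1-phosphate, was the scarcest member, with 1.40, 1.32 and 0.942 FPKM in sgH2AC19 and 1.89, 1.65 and 1.78 FPKM in sgControl. The groups did not overlap, and sgH2AC19 replicate 3 was the lowest library. Its log2 fold change was -0.33 (SE 0.0974), and -0.23 without that replicate. These values rest on 158 to 319 reads per library, with mates of a pair counted separately. SPHK1 shares exonic sequence with PRPSAP1 on the opposite strand, which had 5.94 ± 0.388 FPKM in sgH2AC19 and 4.68 ± 0.148 FPKM in sgControl (SD, n = 3 each), so some of the SPHK1 reads may not be its own. The SPHK1 share of the 2 sphingosine kinases was 45.8%, 42.9% and 33.7% in sgH2AC19 and 50.5%, 46.8% and 46.1% in sgControl.

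**Figure D3:**
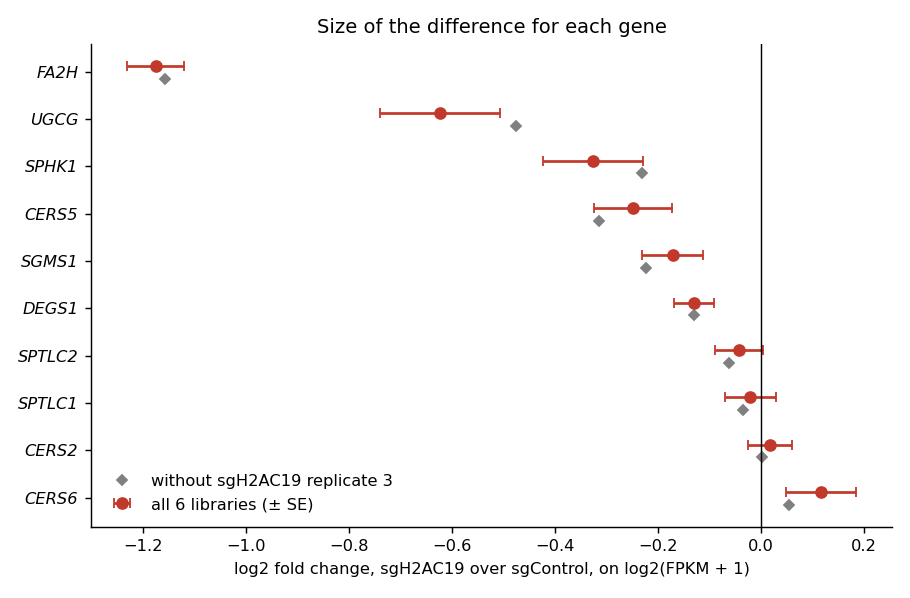
Log2 fold change of each of the 10 genes, sgH2AC19 over sgControl, on log2(FPKM + 1) (x axis; circles with SE, all 6 libraries; diamonds, without sgH2AC19 replicate 3). FA2H stands at -1.18 and UGCG at -0.62, and the other 8 lie between -0.33 and 0.12.

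In this comparison 2967 of 12871 genes, or 23.1%, passed limma's test at an adjusted p of 0.05 (Benjamini-Hochberg over all genes tested), 12.0% higher and 11.0% lower in sgH2AC19. Of the 10 members 2 passed, FA2H and UGCG, both lower. With no filter 1 passed, FA2H, and without sgH2AC19 replicate 3 the count was 5, all lower. Because the members were chosen from this comparison, nothing is read from these counts. In 6 members (FA2H, CERS5, DEGS1, UGCG, SGMS1 and SPHK1) every sgH2AC19 library was below every sgControl library, in 0 it was above, and in 4 the groups overlapped; over all genes tested 21.7% were separated downwards and 21.5% upwards. The median log2 fold change was -0.15 over the members and -0.01 over all genes tested. Because of the same choice of members, nothing is read from the separations or from this median either.

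Ranked by level, the members ran in sgH2AC19 from DEGS1 through CERS2, UGCG, SPTLC1, SGMS1, SPTLC2, CERS5, FA2H and CERS6 to SPHK1. FPKM are per length, so an order of different genes depends on the length used for each. The length giving whole reads was 10589 bases for SPTLC1 and 12287 for SPTLC2, against annotated exons of 6484 and 9143 bases. It was slightly longer for CERS5, shorter for CERS2, CERS6, DEGS1, UGCG and SGMS1, and the same for FA2H and SPHK1. The order under annotated lengths was not tested. In the sgH2AC19 order CERS2 overlapped with UGCG, and FA2H overlapped with both CERS5 and CERS6, its neighbours. In sgControl the order was DEGS1, UGCG, CERS2, SPTLC1, FA2H, SGMS1, SPTLC2, CERS5, CERS6 and SPHK1, and only SPTLC1 and FA2H overlapped as neighbours. FA2H thus had rank 8 in sgH2AC19 and rank 5 in sgControl, and UGCG had rank 3 in sgH2AC19 and rank 2 in sgControl.

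Sphingolipid genes outside the list were taken from textbook lists by role, chosen with earlier results of these data known. Of the 77 listed, 61 were tested. Of these 11 rose and 10 fell in sgH2AC19 against sgControl (limma, adjusted p of 0.05), or 34.4%, beside 23.1% of all genes; their median log2 fold change was -0.001. Leaving out sgControl replicates 1, 2 or 3 left 9, 6 and 8 of 60 called. Over all genes those fits called 1663 of 12659, 1513 of 12644 and 1632 of 12634, so the larger share was not kept throughout. Leaving out sgH2AC19 replicates 1 or 2 left 13 of 61 in both cases, beside 2135 of 12628 and 1965 of 12648 over all genes. Leaving out sgH2AC19 replicate 3 gave 23. Without that library 10 of the 61 were higher and 13 lower, beside 14.1% of all genes higher and 13.0% lower. Counts by role below are small and stand beside 12.0% of all genes tested called higher and 11.0% called lower. No direction of a role, and no absence of calls in a role, is read from them. Genes named below are the called ones with the smallest adjusted p in each role, at most 4.

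**Figure D4:**
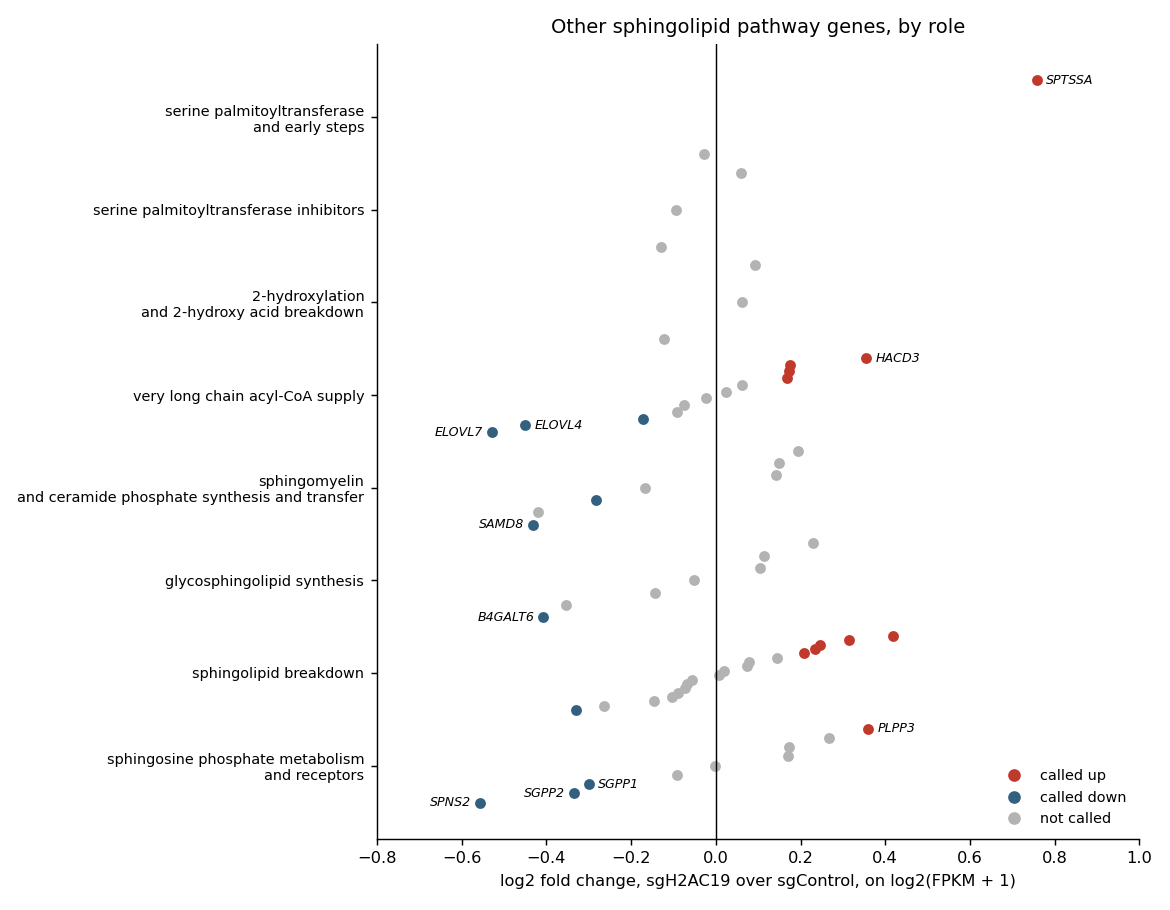
Log2 fold change, sgH2AC19 over sgControl, on log2(FPKM + 1) (x axis) of the 61 tested sphingolipid genes outside the list, 1 point per gene, in rows by role; red and blue points passed limma's test as higher or lower, grey ones did not. SPTSSA, at 0.76, is farthest to the right and SPNS2, at -0.56, farthest to the left.

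Of the early steps, SPTSSA, which encodes a small activating subunit of serine palmitoyltransferase, rose, while KDSR, the reductase that follows, had 8.27 ± 0.868 FPKM in sgH2AC19 and 8.42 ± 0.399 FPKM in sgControl and was not called (SD, n = 3 each). SPTSSA had 46.6, 75.3 and 62.8 FPKM in sgH2AC19, against 37.0, 34.6 and 34.3 FPKM in sgControl. All sgH2AC19 libraries were higher, replicate 1 the least so. The log2 fold change was 0.76 (SE 0.154, limma adjusted p = 0.0140; 0.00192 to 0.069 over the alternatives). The call was lost with no filter (0.069) and without sgControl replicate 2 (0.0510). SPTSSA thus took 72.2%, 79.8% and 76.6% of the summed FPKM of the serine palmitoyltransferase subunits in sgH2AC19 and 65.5%, 64.8% and 64.3% in sgControl. The gene lies within the span of EGLN3 on the same strand, with no shared exon, and EGLN3 had 18.5 ± 2.44 FPKM in sgH2AC19 and 16.1 ± 3.16 FPKM in sgControl and was not called. The ORMDL genes, whose products hold serine palmitoyltransferase in check, gave 0 calls of 3 with limma, 0 at an unadjusted p of 0.05 and 0 with voom. ORMDL1 had 10.7 ± 1.10 FPKM in sgH2AC19 and 11.5 ± 0.474 FPKM in sgControl. ORMDL2 had 5.48 ± 0.416 FPKM in sgH2AC19 and 6.09 ± 0.427 FPKM in sgControl. For ORMDL3 the values were 8.80 ± 0.580 FPKM in sgH2AC19 and 8.40 ± 0.406 FPKM in sgControl, and the groups overlapped for all 3 genes.

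The other genes of 2-hydroxylation and of 2-hydroxy acid breakdown were not called: 0 of 3 passed with limma, 0 at an unadjusted p of 0.05 and 0 with voom. PHYH, a peroxisomal hydroxylase of branched acids, had 13.2 ± 0.529 FPKM in sgH2AC19 and 12.3 ± 0.586 FPKM in sgControl. HACL1, the lyase that cleaves 2-hydroxyacyl-CoA, had 8.16 ± 0.948 FPKM in sgH2AC19 and 8.95 ± 0.510 FPKM in sgControl. ALDH3A2, which oxidises the fatty aldehydes released, had 16.9 ± 0.574 FPKM in sgH2AC19 and 16.1 ± 1.19 FPKM in sgControl. Groups overlapped for all 3 genes.

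Among genes of very long acyl-chain supply, 4 of 12 tested transcripts rose and 3 fell, beside 12.0% and 11.0% of all genes. Of the 4 that rose 1 kept its call in every alternative, HACD3, and the other 3 lost it whenever any 1 library was left out, so that 1 rose and 3 fell without sgH2AC19 replicate 3. ELOVL4, which elongates the longest chains, fell to 2.23 ± 0.0765 FPKM in sgH2AC19, against 3.42 ± 0.0737 FPKM in sgControl (log2 fold change -0.45, SE 0.0529, limma adjusted p = 0.00208). ELOVL7, another elongase, fell to 6.96 ± 0.432 FPKM in sgH2AC19, against 10.5 ± 1.14 FPKM in sgControl (-0.53, SE 0.0809, limma adjusted p = 0.00514). HACD3, a dehydratase of the elongation cycle, rose to 50.5 ± 1.39 FPKM in sgH2AC19, against 39.3 ± 1.84 FPKM in sgControl (0.36, SE 0.0487, limma adjusted p = 0.00346). These 3 calls held in all 13 alternatives. DBI, an acyl-CoA binding protein, fell by 0.17 on the log2 scale (SE 0.0404, limma adjusted p = 0.0237), a call lost when sgH2AC19 replicate 2 or any sgControl library was left out (up to 0.0914).

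For sphingomyelin synthesis and ceramide transfer, 0 of 7 tested genes rose and 2 fell, beside 12.0% and 11.0% of all genes. CERT1, which carries ceramide to the Golgi, had 4.88 ± 0.390 FPKM in sgH2AC19 and 6.15 ± 0.0911 FPKM in sgControl (log2 fold change -0.28, SE 0.0602, limma adjusted p = 0.0165). That call was lost with no filter or without any 1 of the sgControl libraries (adjusted p up to 0.0599). SAMD8, which makes ceramide phosphoethanolamine, had 9.76, 9.09 and 13.3 FPKM in sgH2AC19 and 13.9, 15.1 and 14.8 FPKM in sgControl. Replicate 3 of sgH2AC19 lay close to sgControl and the other two well below. The adjusted p from limma for SAMD8 was 0.0441 (log2 fold change -0.43, SE 0.124), 0.00118 without that replicate, and up to 0.160 over the alternatives, of which 7 lost the call: median-ratio scaling, no filter, and leaving out sgH2AC19 replicate 1 or 2 or any sgControl library.

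In glycosphingolipid synthesis, downstream of UGCG, 0 of 7 tested genes rose and 1 fell (0 and 2 without sgH2AC19 replicate 3). B4GALT6, a lactosylceramide synthase, had 3.95 ± 0.590 FPKM in sgH2AC19 and 5.54 ± 0.384 FPKM in sgControl (log2 fold change -0.41, SE 0.0914, limma adjusted p = 0.0197). The call was lost with no filter and when sgH2AC19 replicate 1 or any sgControl library was left out (up to 0.0824). In the breakdown of sphingolipids 5 of 18 tested genes rose and 1 fell (5 and 2 without sgH2AC19 replicate 3). For both roles the shares of all genes were 12.0% higher and 11.0% lower. GLB1, the lysosomal beta-galactosidase, rose to 26.0 ± 0.479 FPKM in sgH2AC19, against 21.9 ± 0.394 FPKM in sgControl (log2 fold change 0.23, limma adjusted p = 0.00794). That call held in all 13 alternatives. GM2A, the activator of ganglioside breakdown, had 17.3 ± 0.364 FPKM in sgH2AC19 and 14.8 ± 0.888 FPKM in sgControl (0.21, limma adjusted p = 0.0308), a call lost with no filter and when sgH2AC19 replicate 1 or 2 or any sgControl library was left out (up to 0.0889).

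Of the genes of sphingosine phosphate, into which SPHK1 feeds, 1 of 9 tested genes rose and 3 fell, beside 12.0% and 11.0% of all genes. Without sgH2AC19 replicate 3 the counts were 3 and 3. SPNS2, the exporter of sphingosine 1-phosphate, had 0.827 ± 0.0838 FPKM in sgH2AC19 and 1.70 ± 0.319 FPKM in sgControl with a log2 fold change of -0.56 (SE 0.102) that was -0.94 with a pseudocount of 0.1 and -1.02 with voom. It passed the filter on low values through sgControl only and could not have been called higher, so its p is not given and its place among the 3 that fell here, and the 10 in all, is no support for them. The phosphatases SGPP2 and SGPP1, which return the phosphate to sphingosine, were lower too. SGPP2 had 1.86 ± 0.0574 FPKM in sgH2AC19 and 2.61 ± 0.210 FPKM in sgControl (-0.34, limma adjusted p = 0.0126; up to 0.0521, and no longer called, without sgControl replicate 2 or 3). SGPP1 had 17.3 ± 1.35 FPKM in sgH2AC19 and 21.5 ± 0.684 FPKM in sgControl (-0.30, limma adjusted p = 0.0148; up to 0.0569, and no longer called, with no filter or without sgControl replicate 1 or 2). PLPP3, a lipid phosphatase of the cell surface, was higher, at 9.38 ± 1.60 FPKM in sgH2AC19 and 7.03 ± 0.229 FPKM in sgControl (0.36, limma adjusted p = 0.0479). That call was lost with no filter and without each of the libraries other than sgH2AC19 replicate 3 (up to 0.166).

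Replicate 3 of sgH2AC19 moved several of these genes apart from its fellows. In 7 of the 10 members sgH2AC19 replicates 1 and 2 both lay outside the sgControl range on the same side, and in 1 of the 7, SPTLC2, replicate 3 was back within it, or 14.3%. Over all genes tested this held for 1020 of 7250, or 14.1%. For UGCG and SPHK1 replicate 3 was instead farther from sgControl than replicates 1 and 2 were, and for CERS5 and SGMS1 it was nearer. Among the other sphingolipid genes, GLTP and GALC, named after their values were seen, also set this library apart. GLTP, a glycolipid transfer protein, had 9.51, 8.52 and 15.6 FPKM in sgH2AC19 and 15.8, 14.9 and 13.9 FPKM in sgControl. GALC, the lysosomal galactosylceramidase, had 7.35, 7.58 and 10.8 FPKM in sgH2AC19 and 10.3, 10.5 and 10.2 FPKM in sgControl. In both genes replicate 3 was within or above the sgControl range and replicates 1 and 2 were below it. Neither was called (limma adjusted p = 0.153 for GLTP and 0.166 for GALC), and both were without replicate 3 (limma adjusted p = 0.00175 for GLTP and 0.00149 for GALC).

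**Figure D5:**
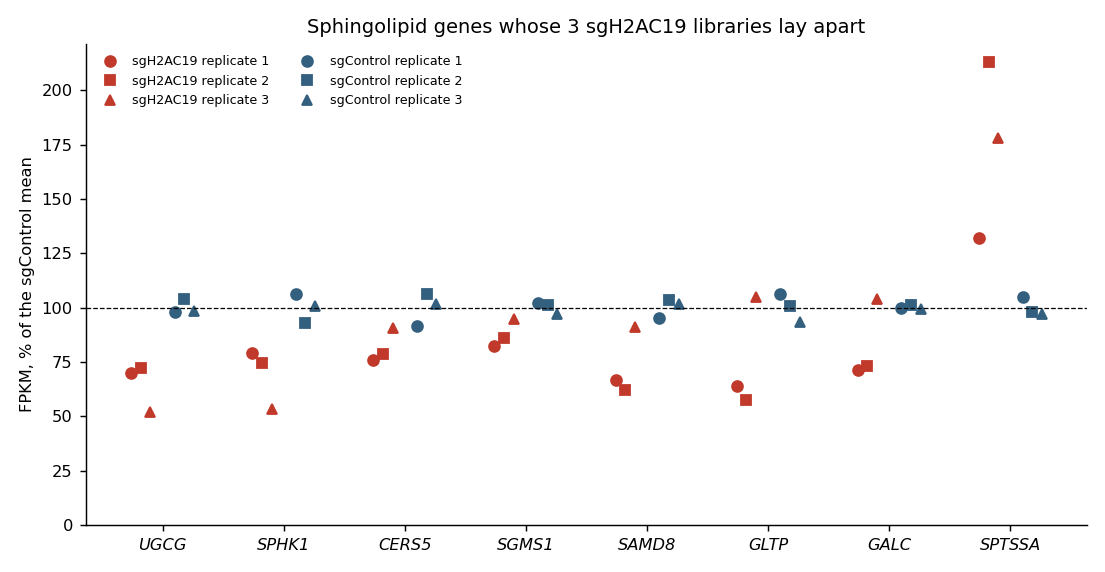
FPKM as a percentage of the sgControl mean (y axis, from 0; dashed line at 100%) for 8 sphingolipid genes picked after their values were seen, because their sgH2AC19 libraries lay apart; each symbol is 1 library. Triangles of sgH2AC19 replicate 3 lie under replicates 1 and 2 for UGCG and SPHK1, above them for CERS5, SGMS1, SAMD8, GLTP and GALC, and between them for SPTSSA.

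Likeness to FA2H across the 6 libraries was taken as Euclidean distance between log2(FPKM + 1) values centred on each gene's mean. Tested genes with clone, LINC, small RNA, mitochondrial or pseudogene-like symbols were left out. The nearest of the rest were CDCP1 (distance 0.121), KRT15 (0.138), BIRC3 (0.295), IGFBP1 (0.299) and ETS1 (0.303). CDCP1, a membrane glycoprotein, had 36.2, 34.3 and 31.3 FPKM in sgH2AC19, against 72.2, 79.8 and 72.7 FPKM in sgControl. KRT15, a keratin, had 0.418, 0.385 and 0.375 FPKM in sgH2AC19, against 2.08, 2.06 and 1.92 FPKM in sgControl, and passed the filter through sgControl only. The 6 libraries form 2 groups, so a small distance mostly reflects a like difference on the log2(FPKM + 1) scale, which ran from -1.12 to -0.98 for the 5 genes beside -1.18 for FA2H. On the FPKM scale KRT15 was farther from FA2H, at 19.4% of its sgControl mean beside 39.6% for FA2H.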

How the data were processed

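The deposited table holds FPKM per gene and library, computed by the authors, per the file headers, with no pooling of replicates. Total RNA was column-purified and a SMARTer mRNA kit was used for the libraries, per the labels' protocols. Not given in the sources used here are the aligner, the counter, its strand setting and the annotation. The submitters' processing notes name the mouse builds GRCm38 and mm10, but all 62700 IDs are human and matched a human symbol. Columns written sgNC and sgH2AC were taken as sgControl and sgH2AC19; 0 columns were left unused. FPKM correct for length and depth, not for composition.

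The members and gene lists were chosen with earlier results of these data known. Values of genes that reached 1 FPKM in 3 or more libraries were taken as log2(FPKM + 1) and compared, two-sided, in R 4.3.3 with limma 3.58.1 and its intensity trend, with Benjamini-Hochberg adjustment over all 12871 genes and a threshold of 0.05. Genes named are the members, the called genes of each role list (at most 4, by adjusted p), the 5 nearest to FA2H and H2AC19; 2 genes within this rule are left unreported. Overlapping genes (PRPSAP1, SETDB1, SGMS1-AS1, EGLN3), KDSR, KRT19, and the ORMDL and 2-hydroxy acid genes that gave no call, were named after their values were seen. Whole reads were recovered from the FPKM steps for 12869 of the 12871 genes (99.98%, tolerance 0.001 reads). GENCODE 29 lengths were used, or the smallest length giving whole reads, and totals differed 1.28-fold. The most frequent step was taken as 1 mate pair, so mates count as separate reads. An alternative was voom on these reads, which took mates as separate counts. The other alternatives were median-ratio and upper-quartile scaling, a pseudocount of 0.1, no filter, a block for the replicate number, a filter on a mean of 1 FPKM, and leaving out each library in turn. Of these steps only the limma fit on log2(FPKM + 1) was tested on simulated data, with fewer changed genes than were called here. Python 3.11.15 with numpy 2.4.6, pandas 2.3.3 and matplotlib 3.10.9 did the rest.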

Additional observations from a re-analysis of the deposited data

How the results depend on the processing

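Over all genes, 2967 were called; the count lay within 1.5 times this under both scalings, a pseudocount of 0.1, a mean of at least 1 FPKM and voom (3540), fell to 1553 of 36938 with no filter, and was 1513 to 3429 when 1 library was left out. Among sphingolipid genes outside the members, 21 were called (11 up, 10 down), 9 with no filter (4 up, 5 down), and 6 to 23 when 1 library was left out (4 to 10 up, 2 to 13 down). Of these 21 genes 7 were called in every alternative that tested them (1 of these, SPNS2, passed the filter through sgControl only), 14 lost the call in at least 1, and 0 changed direction. The cause was not tested. Of 130 member values under the 13 alternatives, 4 moved by more than the spread between replicates: FA2H (-1.32 with a pseudocount of 0.1, -1.33 with voom) and SPHK1 (-0.52 and -0.54). The labels do not say whether the replicate numbers pair the libraries. Deviations of same-numbered libraries correlated weakly, at 0.052, 0.035 and 0.060, although each sgH2AC19 library correlated best with its own number. These values do not settle whether the libraries are paired. With the replicate number as a block, 2729 genes were called, and 17 sphingolipid genes outside the members (8 up, 9 down). Among the members depth limits SPHK1 most, at 158 to 319 reads per library, with mates of a pair counted separately.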
